A study of Caenorhabditis elegans with 4 samples.

Results

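The peaks described here are the MRE-11 peaks on Caenorhabditis elegans chromosome IV that lie outside the piRNA cluster regions. They were chosen by position alone, from the series-level peak list, as every peak on IV whose midpoint falls below 4.5 Mb, between 7.0 and 13.5 Mb, or above 17.2 Mb. The rule gave 912 peaks, out of 1257 on chromosome IV and 6862 on the 6 nuclear chromosomes. The samples are MRE-11 chromatin immunoprecipitates (ChIP, 2 replicates) and input DNA (2 replicates), all from hermaphrodite young adults of genotype fem-2(b245)III with a germline, kept at 20 °C. Young adult is the stage in the labels, whereas the growth protocol describes synchronised batch cultures harvested as gravid adults. The sources do not settle which stage holds. Every sample pools many whole animals of such cultures, germline and soma together. All samples carry fem-2(b245), the sole genotype, and no wild-type sample is analysed here. The antibody is an affinity-purified rabbit polyclonal against MRE-11. Both ChIP replicates have a peak list and the inputs have none analysed here.

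MRE-11 is the nuclease of the conserved MRE11-RAD50 complex. The complex binds broken DNA ends, starts their resection, and in the worm germline is needed both to make meiotic double-strand breaks with SPO-11 and to process them for repair by RAD-51. fem-2 encodes a protein phosphatase of the sex-determination pathway. Worm autosomes have a gene-rich centre with little crossing over and arms with more repeats and more crossing over. Chromosome IV is set apart by broad clusters of piRNA genes (21U-RNAs, the small RNAs bound by the Argonaute PRG-1 in the germline). The regions left out, 4.5 to 7.0 Mb and 13.5 to 17.2 Mb, are those of the clusters.

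The rule leaves 11.29 Mb (64.6% of the chromosome) in 3 stretches. The left stretch runs over 4.5 Mb from the left end, the central stretch over 6.5 Mb from 7.0 to 13.5 Mb, and the right tip over 0.2938 Mb. The left stretch held 474 peaks, the central stretch 428 and the tip 10. All positions are on WormBase WS220. The deposited scores are the peak caller's own values without a named unit, so they are used here as ranks within a list. No file gives read counts, so the depth behind the peaks is unknown. The 2 replicate lists allow no test across samples and neighbouring peaks are not independent. Differences below are therefore descriptions, and intervals are exact (Clopper-Pearson) 95% binomial intervals that cover counting error only.

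The peaks nearest the edges of the rule were mostly weak. At 4.5 Mb the last peak inside was IV:4471469-4471680 (score 4.18) and the first outside was IV:4513447-4513760 (score 12.16). At 7.0 Mb the first inside was IV:7023073-7023218 (score 2.94) and the last outside was IV:6977556-6977801 (score 3.13). At 13.5 Mb the last inside was IV:13477325-13477502 (score 2), and IV:13499947-13500363 (score 14.32) fell outside because its midpoint lies just past the edge. At 17.2 Mb the first inside was IV:17249703-17250035, with a score of 79.57, and the last outside was IV:17155185-17155436 (score 2.3).

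By number, MRE-11 peaks were denser in the 3 stretches combined than in the regions left out and in the genome as a whole. The series-level list had 80.8 peaks per Mb there, against 55.6 in the left-out regions and 68.4 over all 6 chromosomes. Among whole chromosomes the value lay below I (87.2) and III (120) and above II (66.0), V (50.9) and X (31.9). In replicate 1 the 3 stretches held 218 of 1579 peaks, 19.3 per Mb against 15.7 over all chromosomes. In replicate 2 they held 574 of 4403 peaks, 50.8 per Mb against 43.9. Relative to each list's own genome-wide density the stretches stood at 1.19 ± 0.05 (mean of replicates, SD, n = 2), and the left-out regions at 1.03 ± 0.05 (n = 2). In each replicate the stretches lay above the left-out regions, at 1.23 and 1.07 in replicate 1 and 1.16 and 0.988 in replicate 2.

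Of the 3 stretches the left one was the densest. It had 105 series-level peaks per Mb, against 65.8 in the central stretch, a ratio of 1.60. The right tip had 34 per Mb, from 10 peaks. In replicate 1 the left stretch had 25.6 peaks per Mb and the central stretch 15.5, a ratio of 1.64. In replicate 2 these were 56.7 and 47.8 per Mb, a ratio of 1.18. The ratio was above 1 in both replicates and averaged 1.41 ± 0.33 (SD, n = 2), so the replicates differed in its size. Without the left stretch, the remaining 438 series-level peaks stood at 64.5 per Mb, below the genome mean of 68.4. The replicates differed here too. In replicate 1 the remaining stretches had 15.2 peaks per Mb against 15.7 over all chromosomes, and in replicate 2 they had 47.0 against 43.9. In replicate 1 they also lay below the left-out regions (16.8 per Mb), and in replicate 2 above them (43.4 per Mb). The replicates also disagreed on covered sequence. Replicate 1 covered 46.1 bp per kb of the left stretch and 27.2 of the central stretch, whereas replicate 2 covered 24.8 and 27.2.

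In the series-level list the peaks of the left stretch were gathered between 1.0 and 3.0 Mb. Of the 22 whole windows of 500 kb inside the left and central stretches, the lowest held 17 series-level peaks, the median 38 and the highest 89. The highest was 2.0 to 2.5 Mb, which ranked 5 among 197 windows over all chromosomes (genome median 30). The windows from 1.0 to 1.5, 1.5 to 2.0 and 2.5 to 3.0 Mb followed it with 65, 67 and 63 peaks. Together these 4 windows held 284 peaks (31.1% of the 912) on 17.7% of the retained length. Of the 284, 115 overlapped no peak of either replicate, where 279 of the 912 (30.6%) did. Counts were lower beyond, with 44 peaks between 3.0 and 3.5 Mb and 21 between 3.5 and 4.0 Mb. In the central stretch the window from 11 to 11.5 Mb stood out with 59 peaks, after 19 and 24 in the windows from 10.0 to 11 Mb.

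The replicates placed their densest windows differently. Replicate 1 had its highest count at 2.0 to 2.5 Mb, with 27 peaks against a median window of 9. Replicate 2 had 29 peaks in that window, close to its median of 27.5, and its highest count at 11 to 11.5 Mb, with 48. Replicate 1 had 13 in that central window, above its median of 9. Both replicates were sparse at 3.5 to 4.0 Mb, with 3 and 11 peaks. In the 4 windows from 1.0 to 3.0 Mb replicate 1 had 21, 13, 27 and 7 peaks, the last below its median. Replicate 2 had 33, 33, 29 and 26 there. Its counts were similar in the first 2 windows of the chromosome (31 and 28), at 3.0 to 3.5 Mb (30) and at 4.0 to 4.5 Mb (34). The gathering of the series-level list was thus not seen in replicate 2. Across the 22 windows the counts of the replicates had a Spearman rho of 0.71, a description only, since neighbouring windows may not be independent. Repeat and base content of the windows were not read, and their part in this value was not tested.

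**Figure D1:**
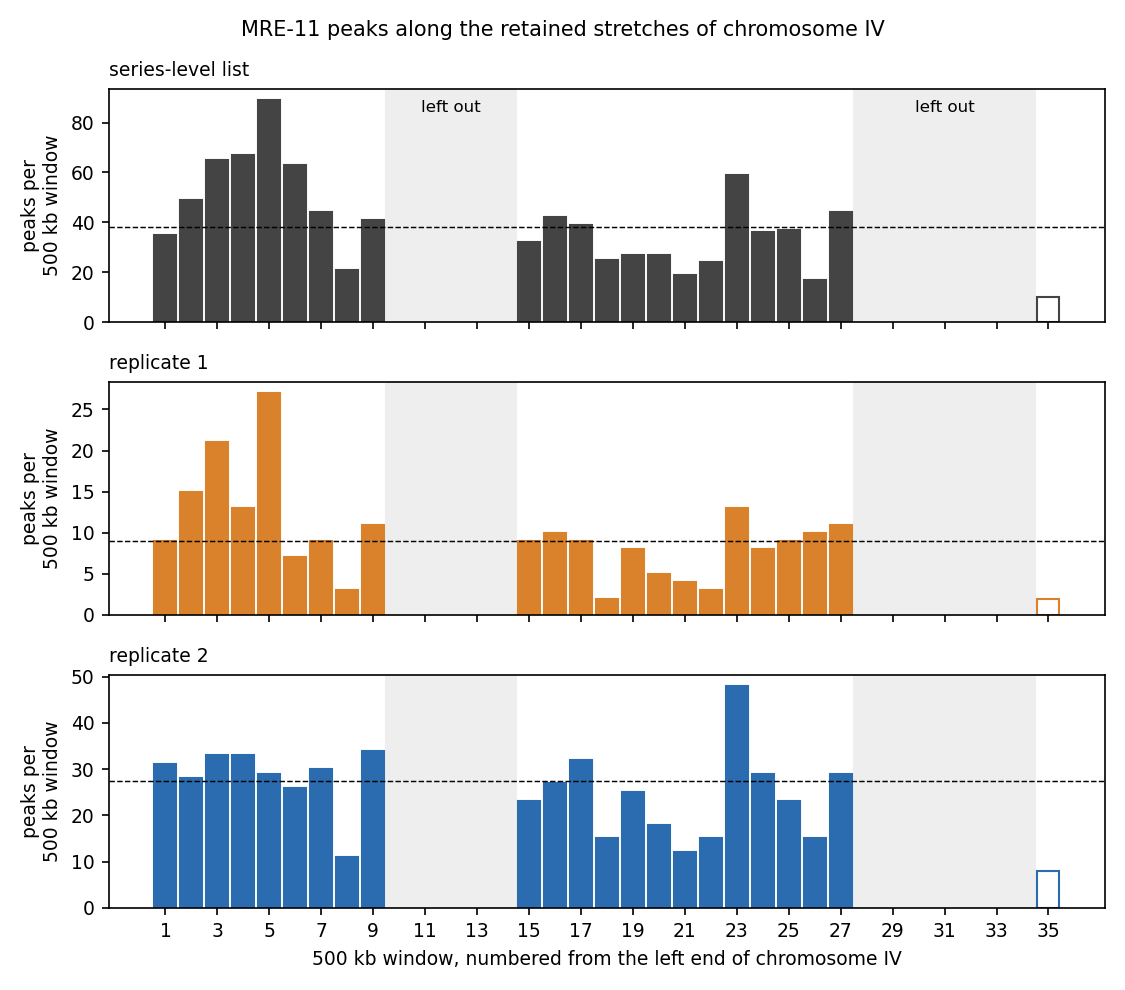
Peaks per 500 kb window (y axis) against the window's number from the left end of chromosome IV (x axis), for the series-level list and each ChIP replicate. Dashed lines are the medians of the 22 whole retained windows (38, 9 and 27.5), grey bands are the regions left out and the open bar is the part of the last window past 17.2 Mb. The series-level list and replicate 1 are highest in window 5 (89 and 27), replicate 2 in window 23 (48).

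Set out as arms and centre, with the chromosome cut into 3 equal segments at 5.831 and 11.66 Mb, the left arm differed from the right arm. These segments are equal lengths, not domains of gene density or crossing over, so arm and centre are names of position only. The left arm kept 4.5 Mb with 474 series-level peaks (105 per Mb), the right arm 2.131 Mb with 123 peaks (57.7 per Mb) and the centre 4.663 Mb with 315 peaks (67.6 per Mb). Both arms together had 1.33 times the density of the centre in the series-level list, 1.52 times in replicate 1 and 1.04 times in replicate 2, a replicate mean of 1.28 ± 0.34 (SD, n = 2). The right arm alone was below the centre in the series-level list and in replicate 2 (40.8 against 49.8 per Mb), and close to it in replicate 1 (16 against 14.8 per Mb). Most of the right arm lies in a region left out by the rule. What it kept was mainly 11.66 to 13.5 Mb, which adjoins the centre, with the tip past 17.2 Mb. Its comparison with the centre therefore says little about the outer part of that arm. The left segment was also the densest of the 3 segments on III (171 per Mb), I (101) and X (41.7), but not on II (58.9) or V (42.4).

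In the series-level list the excess of the left stretch over the central one lay among low-scoring peaks. With the whole series-level list cut into 4 equal groups by score, the lowest group had 34.9 peaks per Mb in the left stretch and 15.5 in the central stretch. The next group had 30.9 and 15.1, and the third 23.1 and 16. In the group of highest scores the order turned, with 16.4 per Mb in the left stretch and 19.2 in the central stretch (74 and 125 peaks). The ratio of left to central was thus 2.25 in the lowest group, 2.05 and 1.44 in the next and 0.855 in the highest. Of the 284 peaks between 1.0 and 3.0 Mb, 190 (66.9%) lay in the lower 50% of the list by score. Among peaks in the upper 50%, the fullest window was 11 to 11.5 Mb, with 36 against a median of 18.5.

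The replicate lists carried this pattern to different degrees when each was ranked by its own scores. In replicate 2 the left to central ratio was 1.58 in the lowest group, 1.31 and 1.16 in the next, and 0.756 in the highest. In replicate 1 it was 2.07, 1.44 and 1.71, and stayed at 1.38 in the highest group, which held 21 left and 22 central peaks. In the upper 50% of the lists the ratio was 1.56 in replicate 1 and 0.948 in replicate 2, and averaged 1.26 ± 0.43 (SD, n = 2), so the replicates lay on opposite sides of 1 for stronger peaks.

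**Figure D2:**
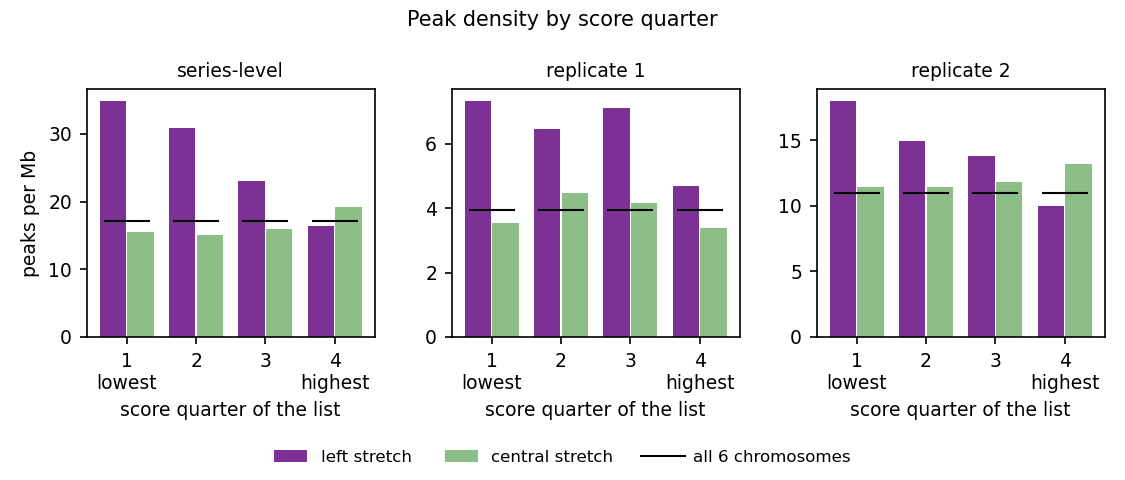
Peaks per Mb (y axis, its own scale in each panel) in the left and central stretches of chromosome IV for 4 equal groups of each list by score (x axis, lowest to highest), with black marks for the density over all 6 chromosomes. In the series-level list the left bars fall from 34.9 to 16.4 while the central bars stay between 15.1 and 19.2, and in replicate 1 the left bar is the higher in every group.

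The peaks were narrow. The 912 had a median width of 269 bp (95% interval of the median 257 to 281), with quartiles of 198 and 419.75 bp. The median was 282 bp over the whole list and 306 bp in the left-out regions. The left-out region between the left and central stretches had 283 bp, and that between the central stretch and the tip 327 bp. The smallest width, 146 bp, was that of 28 of the 912 peaks and of 151 in the whole list. Of the 912, 52 (5.7%) were 1000 bp or wider, near the 6.32% of the whole list. These wide peaks made up 4.01% of the left stretch (19 peaks) and 7.48% of the central stretch (32 peaks). The medians of the stretches were 256.5 bp (left) and 285.5 bp (central), and the 10 peaks of the tip had 321 bp. Between 11 and 11.5 Mb lay 8 of the wide peaks, the most in any window.

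The 5 widest peaks lay in both stretches and differed in score. IV:4416418-4421606 was the widest at 5189 bp (score 27.12), followed by IV:11070823-11075920 at 5098 bp (score 76.1). IV:7958055-7962059 spanned 4005 bp (score 27.45), IV:8578253-8581728 spanned 3476 bp (score 43.71), and IV:12022041-12025498 spanned 3458 bp (score 69.25). Of the 5, IV:8578253-8581728 had no replicate 1 partner and a replicate 2 partner with a score of 518.17. IV:12022041-12025498 met a peak scored 3100 in each replicate. None of the 5 was among the 20 highest scores.

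Higher scores went with greater widths, with a Spearman rho of 0.60 over the 912, the same as over the whole list (0.60), given without a test because the caller sets both. The median percentile rank of the score in the whole list was 45.9 (95% interval of the median 42.1 to 49.2). It was 52.9 in the left-out regions and 50.6 over the whole list. In the left-out region between the left and central stretches it was 46.4, and in that between the central stretch and the tip 60.1. The left stretch had a median percentile of 38.8 and the central stretch 54.6. The share of peaks in the top 10% of the list was 5.49% in the left stretch (26 peaks) and 13.8% in the central stretch (59 peaks). For the 3 stretches together it was 9.65%, near the 10.1% of the whole list, against 15.1% in the left-out regions. The left-out region between the left and central stretches had 9.32%, and that between the central stretch and the tip 20.1%.

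**Figure D3:**
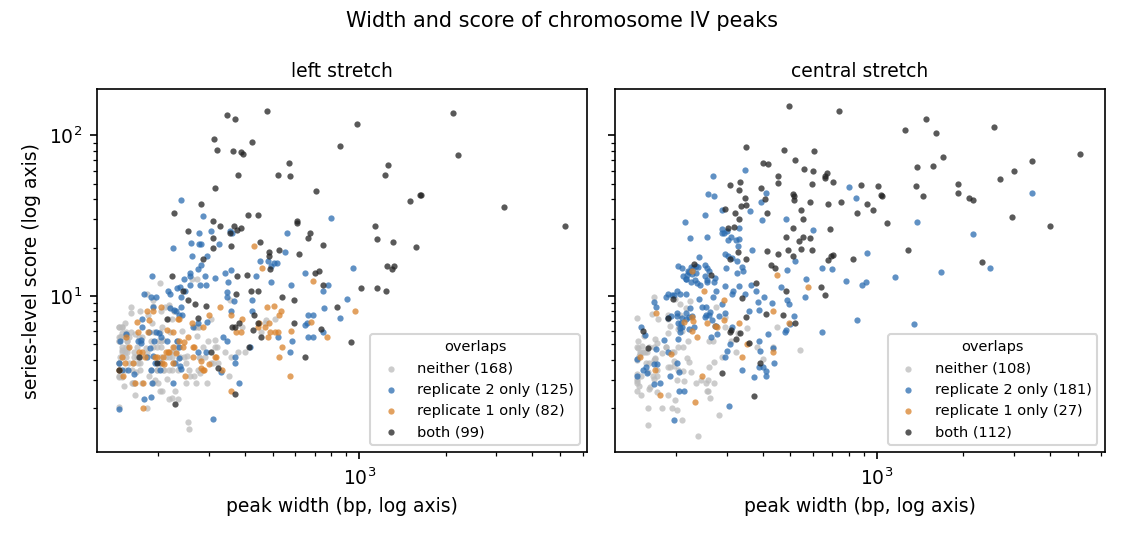
Series-level score (y axis, log) against peak width in bp (x axis, log) for each peak of the left and central stretches, coloured by which replicate lists it overlaps, with counts in the legend. Peaks that overlap neither replicate (168 left, 108 central) sit at low width and score, and those that overlap both (99 left, 112 central) at high width or score.

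The 20 highest-scoring peaks all overlapped a peak of both replicates. Of the 50 highest of the 912, 48 did so, and of the 100 highest, 87. High scores went with such overlap in the whole list too. In the highest of its 4 score groups 62.4% met both, against 23.2% of all peaks. Among the 912 the share in that group was 70.6%. This group is much broader than the 20, 50 or 100 highest, for which no whole-list share was taken. The 20 were spread over the stretches, with 10 in the left stretch, 9 in the central stretch and 1 in the tip. They ranked 33 to 136 in the whole list. The highest was IV:9196186-9196681 (496 bp, score 153.65), whose partners scored 540.66 in replicate 1 and 1994.16 in replicate 2. It was followed by IV:1659048-1659523 (476 bp, score 142.4), IV:7946884-7947623 (740 bp, score 141.41), IV:4388698-4390823 (2126 bp, score 137.83) and IV:654717-655063 (347 bp, score 134.73). Next came IV:11400073-11401559 (1487 bp, score 126.97), IV:3313320-3313689 (370 bp, score 126.52) and IV:385059-386044 (986 bp, score 117.22). They were wider than most of the 912, at 312 to 2546 bp with a median of 486 bp against 269 bp. Of the 20, 11 were under 500 bp and 5 were 1000 bp or wider. The highest autosomal scores elsewhere were 172.07 on III, 168.79 on II, 148.24 on V and 147.27 on I, so the strongest of the 912 lay below the highest of III and II and above those of V and I.

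Some of the 20 lay close together. 8 of them had another of the 20 within 20 kb, among them IV:7946884-7947623 and IV:7948258-7948607, and IV:385059-386044 and IV:390313-390624. IV:11323892-11326437 (2546 bp, score 112.74) and IV:11339220-11340819 (1600 bp, score 103.36) formed another pair in the 11 to 11.5 Mb window, where IV:11400073-11401559 also lies. These 3 peaks each met a replicate 2 peak with the score 3100. That score recurred for IV:12022041-12025498 in both replicates, and no partner of a named peak scored higher. Whether 3100 is an upper limit of the scale is not stated. The best replicate 1 partners of the 3 peaks scored 447.13, 484.95 and 613.7. IV:12404120-12404594 (score 80.87) and IV:12391091-12391695 (score 79.57) formed the remaining pair.

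The 6 of the 20 not yet named each lay more than 20 kb from any other of the 20. IV:7485782-7487029 was 1248 bp wide with a score of 107.65. IV:4184673-4185094 had a score of 91.42 and IV:3050133-3050990 had 85.91. IV:2033028-2033348 (score 81.37) and IV:2388921-2389284 (score 79.62) were the highest of the densest window, followed there by IV:2494858-2495565 (score 45.03). IV:17249703-17250035 (score 79.57) lay on the right tip. The best replicate 2 partners of the 20 scored 689.92 to 3100 (median 1473), and the best replicate 1 partners 66.19 to 965.79 (median 370.6). The replicate scores are not compared in size, because the depth of neither list is known.

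Overlap with the replicate lists, by 1 bp or more, was close to that of the whole list. Of the 912 peaks, 322 (35.3%, 95% interval 32.2 to 38.5) met a replicate 1 peak, where 37.7% of all 6862 did. For replicate 2 it was 524 (57.5%, interval 54.2 to 60.7), where 58.8% of all did. Both replicates were met by 213 peaks (23.4%, all peaks 23.2%), replicate 1 alone by 109 (12%, all peaks 14.4%) and replicate 2 alone by 311 (34.1%, all peaks 35.6%). Neither was met by 279 (30.6%, interval 27.6 to 33.7), above the 26.8% of all peaks. By chromosome that share was 26.8% on I, 25.8% on II, 23.3% on III, 26.9% on V and 33.7% on X. In the left-out regions 24.1% met neither replicate and 33.9% met both. The left-out region between the central stretch and the tip carried this contrast, with 20.1% for neither and 42.4% for both. In that between the left and central stretches the shares were 28.6% and 24.2%, close to those of the 912.

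The left and central stretches differed in which replicate their peaks were found in. In the left stretch 224 of 474 peaks (47.3%, interval 42.7 to 51.9) met a replicate 2 peak, and in the central stretch 293 of 428 (68.5%, interval 63.8 to 72.8). Over all peaks 58.8% met replicate 2. For replicate 1 the shares were 38.2% (left), 32.5% (central) and 37.7% (all peaks). Of the 109 peaks that met replicate 1 alone, 82 (75.2%) lay in the left stretch, which held 474 of the 912. Such peaks made up 17.3% of the left stretch and 6.31% of the central stretch, against 14.4% of all peaks. The central stretch thus lay further from the whole list than the left one. The window from 2.0 to 2.5 Mb held 30 of the 109, against 10 peaks that met replicate 2 alone. That window and the one from 0.5 to 1.0 Mb (12 and 11) were the 2 of the 22 windows in which more peaks met replicate 1 alone than replicate 2 alone. Neither replicate was met by 35.4% of the left stretch (168 peaks) and 25.2% of the central stretch (108 peaks), against 26.8% of all peaks.

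The score of a peak went with its overlap. In the lowest of the 4 score groups of the list, 59.3% of the 258 peaks from the stretches met neither replicate, and 4.26% met both. In the second these shares were 41.4% and 9.21% (239 peaks), and in the third 12.3% and 17.1% (211 peaks). In the highest, 0.49% met neither and 70.6% met both (204 peaks). The whole list gave 54.8%, 37.7%, 14% and 0.699% for neither, and 62.4% for both in its highest group. Within each score group the replicate 2 share was lower in the left stretch than in the central stretch. In the lowest group it was 22.3% (left) against 27.7% (central), in the second 30.2% against 52%, and in the third 71.2% against 85.6%. In the highest group it was 98.6% against 100%. Over the whole list the replicate 2 shares were 25%, 40.8%, 71.2% and 98.1%. The left stretch thus lay below the whole list in the lower groups and close to it in the upper ones, and the central stretch lay above it in each. The replicate 1 share was the higher one in the left stretch in each of the 4 groups, at 26.8%, 33.1%, 35.6% and 75.7%, against 10.9%, 22.4%, 18.3% and 69.6% in the central stretch. The whole list had 24.2%, 29.4%, 33.5% and 63.5%. In the lower 3 groups the left stretch lay within a few percentage points of the whole list and the central stretch further below it, while in the highest group both stretches lay above it.

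**Figure D4:**
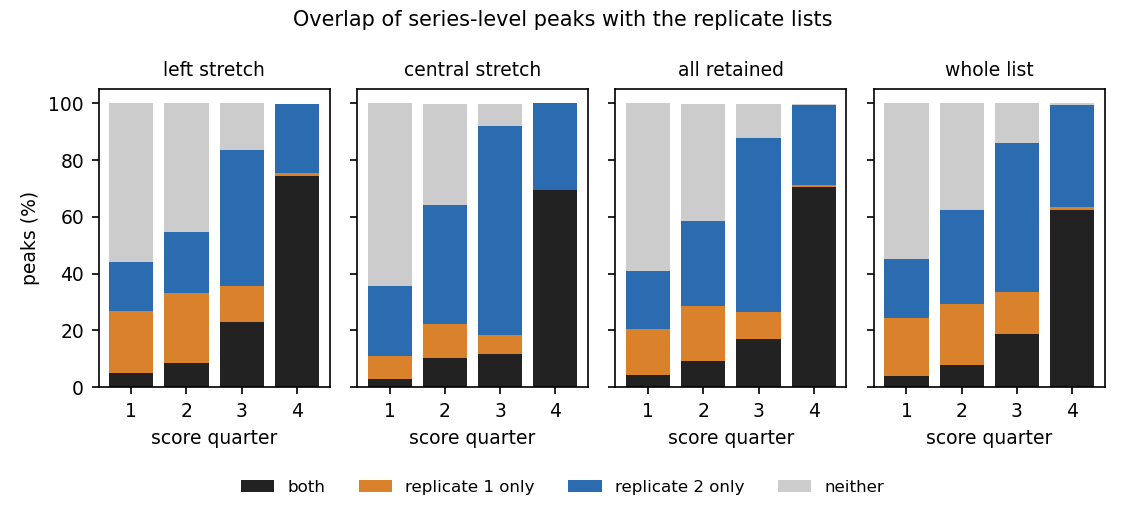
Share of series-level peaks (y axis, %) that overlap both replicates, replicate 1 only, replicate 2 only or neither, for 4 equal groups of the whole list by score (x axis, 1 lowest), in the left stretch, the central stretch, all retained stretches and the whole list. The share that overlaps both is highest in group 4, at 74.3% in the left stretch and 69.6% in the central stretch, and replicate 1 only is larger in the left stretch in groups 1 to 3.

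The overlap classes also differed in width. The median was 489 bp for peaks that met both replicates, 256 bp for replicate 1 alone, 274 bp for replicate 2 alone and 197 bp for neither. Their median scores were 26.06, 5.58, 9.61 and 4.48. All 52 peaks of 1000 bp or more met replicate 2, and 86.5% of them met both, where the 434 such peaks of the whole list did so in 94.9% and 82.3% of cases. Wider intervals meet others by 1 bp more easily, and the part of width in these shares was not tested. The strongest peak that met neither replicate was the last of the chromosome, IV:17493197-17493816 (620 bp, score 39.86). It was followed by IV:884766-885027 and IV:2275588-2275860, both at 12.76. The first peak, IV:1-227 (score 32.85), met both replicates. The weakest that met both were IV:4421811-4422038 (score 2.12), IV:11610738-11611109 (2.39) and IV:2370578-2370948 (2.45). The first of these is 228 bp wide and lies beside the widest peak, IV:4416418-4421606, inside the same peak of each replicate.

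Replicate 1 and replicate 2 peaks related to the series-level peaks in different ways. Of the 322 overlaps with replicate 1, 306 (95%) lay wholly inside a replicate 1 peak, where 94.7% did over the whole list. Replicate 1 peaks were wide, with a median of 1418.5 bp in the stretches. Of the 218 replicate 1 peaks, 80 spanned 2 or more series-level peaks and the most spanned by any was 8. Replicate 2 peaks had a median of 368 bp, and 21 of the 574 spanned 2 or more. The scores of overlapping peaks had a Spearman rho of 0.74 with replicate 2 over the 524 pairs, and of 0.16 with replicate 1 over the 322, against 0.74 and 0.10 over the whole list. These values are descriptions, and whether the lists share reads is not stated in the labels or headers. The replicates met each other at shares near those of their whole lists. 167 of the 218 replicate 1 peaks (76.6%, interval 70.4 to 82.1) met a replicate 2 peak, where 79.5% of all replicate 1 peaks did. 230 of the 574 replicate 2 peaks (40.1%) met replicate 1, where 39.5% of all did. Within the left stretch the replicate 1 share was 65.2% (75 of 115, interval 55.8 to 73.9), and in the central stretch 89.1% (90 of 101, interval 81.3 to 94.4). The replicate 2 share did not differ in this way, at 41.2% in the left stretch (105 of 255, interval 35.1 to 47.5) and 39.2% in the central stretch (122 of 311, interval 33.8 to 44.9).

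Few replicate peaks were missing from the series-level list. 210 of the 218 replicate 1 peaks (96.3%) and 531 of the 574 replicate 2 peaks (92.5%) met a series-level peak, where 97.6% and 92.9% of all did. The strongest without one were IV:2309944-2311295 (score 101.01) and IV:1193729-1195251 (score 97.64) in replicate 1, both between 1.0 and 2.5 Mb. In replicate 2 they were IV:691795-692487 (score 141.08) and IV:11035322-11035698 (score 90.51). None of the 4 met a peak of the other replicate.

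Many of the peaks had a close neighbour. The gap between the edges of neighbouring peaks had a median of 3758 bp, against 3956.5 bp over the whole list, and 29.9% of the gaps were under 1 kb, against 30.4%. The median gap was 2801 bp in the left stretch and 5667 bp in the central stretch. Runs of 3 or more peaks with gaps under 1 kb numbered 62 and held 220 of the 912 peaks (24.1%, whole list 25%). There were 31 in the left stretch (4.5 Mb) and 31 in the central stretch (6.5 Mb), so per Mb they were more frequent in the left stretch. The share in runs was 23% in the left stretch and 25.9% in the central stretch, so it was not larger in the denser stretch. Gaps under 1 kb made up 31.1% of the gaps in the left stretch and 29% in the central stretch. Peaks with no neighbour within 1 kb made up 47.9% and 53.5%, so by these measures the left peaks lay somewhat closer together. The longest run had 8 peaks, at IV:2523688-2529218, with scores of 3.79 to 10.78. All 8 lay on 1 replicate 1 peak and 2 of them met replicate 2. The longest in the central stretch had 6 peaks, at IV:8510620-8514546, and all 6 met replicate 2. A run of 5 peaks at IV:8572669-8581728 had scores from 24.33 to 47.71 and covered 92.7% of its span. All 5 met replicate 2 and none met replicate 1. Peaks in runs met replicate 1 in 48.2% of cases and peaks with no neighbour within 1 kb in 23.1%, while for replicate 2 the shares were 58.6% and 61%. Over the whole list these shares were 61.5% and 23.5% for replicate 1, and 50.9% and 62.1% for replicate 2, so the contrast for replicate 1 was present in the whole list and larger there.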

How the data were processed

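The submitters' processing notes name BWA and build ce10. The 3 deposited peak lists are on WormBase WS220, per the file headers: 1 for each ChIP replicate, with the caller named MACS, and 1 for the series, named MACS v2. Each deposited peak carries a score from the caller, in a unit that no header gives. The lowest was 50.07 in replicate 1, 50 in replicate 2 and 1.3 in the series-level list, so the scales were kept apart. Control, settings and any pooling of reads are not given in the sources used here. Nor do the labels say whether replicates came from separate cultures, so their SD may be technical.

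The 2 mitochondrial peaks of the series-level list were left out. Chromosome lengths are the largest peak end in any list. Peaks were assigned to stretches and windows by midpoint. A gap under 1 kb defined runs. No test was planned or made. The members and comparisons were chosen with earlier results of these data known, and the comparisons of left with central stretch, of score groups and of runs after their values were seen. Named peaks follow a fixed rule: the 20 highest scores, the 5 widest, the 3 strongest without a partner, the 3 weakest with both, the ends, the edges and the 3 highest of the densest window, with 2 unmatched peaks per replicate. The runs and the peaks named in them were chosen after their values were seen. Overlap, density and interval functions were tested on simulated data. Gene annotation was available for a different assembly only. Peaks were therefore named by position, and no gene or sequence was read. Python 3.11.15, numpy 2.4.6, pandas 2.3.3, scipy 1.17.1 and matplotlib 3.10.9 were used.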

Additional observations from a re-analysis of the deposited data

How the results depend on the processing

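Of 61 alternative values for 20 results, 16 moved by more than the spread between replicates or the counting interval. The other 45 did not, apart from the number of peaks in runs, which as a count was judged by a factor of 1.5. It was 321 with gaps under 2 kb, against 220 with gaps under 1 kb. The causes were not tested, except that a score limit itself keeps wider and more often shared peaks. In the upper 50% by score the density relative to all chromosomes was 1.07 in the series-level list and 1.16 in replicate 1. The left to central ratio of the series-level list was 1.12. Its arm to centre ratio was 1.00, which was counted as not moved. There the share of peaks that met replicate 1 was 48.4%, replicate 2 88.4%, both 43.4% and neither 6.51%, and the median width was 366 bp. By covered bases the relative density was 1.12 in the series-level list, 1.1 in replicate 1 and 1.11 in replicate 2. Without the left stretch, an alternative chosen after seeing the data, 32.2% met replicate 1, 68.5% replicate 2 and 25.3% neither, the median width was 288 bp and the median percentile 54.9. With 1 replicate left out the arm to centre ratio ranged from 1.04 to 1.52, the left to central ratio from 1.18 to 1.64 and the relative density from 1.16 to 1.23. In replicate 2 the arm to centre ratio fell below 1 by covered bases (0.86), in the upper 50% (0.882) and with wider regions left out (0.997). Its left to central ratio was 0.913 by covered bases. All of these were counted as not moved, because the replicates differed widely (SD 0.341 for arm to centre, 0.325 for left to central). For these 2 ratios, not moved therefore does not mean that a value stayed above 1. Counting an overlap only where 50% of the peak was covered gave 35.1% for replicate 1 and 54.4% for replicate 2. No paired analysis was possible because no result rests on a test and the inputs, the only samples numbered like the ChIP replicates, were without peak lists here. Read depth, which limits how many weak peaks a list can hold, is unknown.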
